A study of Mus musculus with 6 samples.

Results

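The STRAP eCLIP peaks in 50 genes that encode the microtubule network and the proteins that anchor it were examined. These genes comprised 7 tubulins, the intermediate filament protein vimentin, and the spectraplakins, spectrins, motors, plus-end tracking proteins, centrosomal and spindle proteins and actin linkers. The genes were given as a list, drawn up with earlier results of these data known. A deposited peak was assigned to one of them when its summit lay inside the gene's span in the Gencode M21 annotation of mm10 (GRCm38). This selected 119 of 10748 deposited peaks, 109 of them in eCLIP libraries and 10 in inputs. In all, 36 of the 50 genes held a peak, 34 of them in at least 1 eCLIP library.

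Enhanced crosslinking and immunoprecipitation (eCLIP) sequences the RNA fragments that remain bound to a protein after UV crosslinking and antibody pull-down. STRAP, a WD-repeat protein and a component of the SMN complex that assembles spliceosomal snRNPs, was pulled down from C57BL/6 wild type mouse embryos of prenatal day 9.5 and from 9-day-old embryoid bodies (EBs), aggregates that differentiated from embryonic stem cells in medium without LIF followed by N2B27 with bFGF. Each tissue gave 2 eCLIP libraries and 1 input, the RNA sequenced without pull-down, so that the groups were embryo eCLIP (n = 2), EB eCLIP (n = 2), embryo input (n = 1) and EB input (n = 1). All 6 libraries were wild type, so no STRAP-deficient library entered the comparison, and the embryos were pooled, so a library is not 1 animal.

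The eCLIP libraries held 136935 to 228422 tags and 1256 to 1955 peaks, against 6289516 and 6825190 tags and 2780 and 1999 peaks in the embryo and EB inputs. Peaks had been called in each library by itself, without the input as control, and were listed without a strand. The smallest peak listed held 3 or 4 tags in an eCLIP library, which equalled 13.1 to 21.9 tags per 1000000 library tags (CPM, the tags in called peaks scaled to library size), and 10 tags in an input, which equalled 1.59 and 1.47 CPM. A gene without a listed peak therefore had no called peak, which is not an absence of reads. Among markers of the tissues, the embryonic globin Hba-x held 43 and 54 tags in the embryo eCLIP libraries and none in the EB eCLIP libraries, and the pluripotency gene Dppa5a held 12 and 15 tags in the EB eCLIP libraries only. The other listed globins, among them Hbb-y with 21 and 26 tags, had peaks in the embryo eCLIP libraries only. Pou5f1 (11 and 6 tags) and Sox2 (26 and 21) had peaks in the EB eCLIP libraries only. Sox11 and Nes, listed with Sox2 as neural progenitor markers of EBs, had eCLIP peaks in embryo libraries only. No Lin28a or Dnmt3b peak was listed.

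Of the markers, only Hba-x and Sox11 had an input peak, and there the inputs did not follow their labels. The library labelled EB input held 26 tags in Hba-x and 36 in Sox11, a gene of neural progenitors with 70 and 72 tags in the embryo eCLIP libraries, while the EB eCLIP libraries and the library labelled embryo input held none in either gene. Of the 132 protein-coding genes with a peak in both embryo eCLIP libraries and no EB eCLIP library, 14 (10.6%) had a peak in the library labelled embryo input and 30 (22.7%) in the library labelled EB input. Of the 214 genes with the reverse pattern, the numbers were 32 (15%) for the library labelled embryo input and 21 (9.81%) for the library labelled EB input. Labels were kept as given, embryo input and EB input below mean the libraries so labelled, and counts that rest on 1 input are also given with the input of the other tissue.

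Microtubules are polymers of alpha and beta tubulin that grow from the centrosome, carry kinesin and dynein motors, and form the mitotic spindle. Plus-end tracking proteins bind their growing tips. Spectraplakins and spectrins tie them, or the cell membrane, to actin and intermediate filaments. In the early embryo these proteins serve the divisions and the interkinetic movement of neural progenitors.

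Where the same coding exon held a summit in at least 2 eCLIP libraries, the RNA around it could be read from the genome. Of the sites with the most libraries and tags, 6 are printed below from the RefSeq assembly GRCm38.p6, on the strand of the gene, in 120 nt or, for Macf1, 119 nt. Capitals mark the 7 bases centred on the summit. The sites lie at chr17:35835428-35835547 (minus strand, exon 4 of 4, Tubb5), chr5:4046652-4046771 (plus strand, exon 30 of 48, Akap9), chr5:123630472-123630591 (minus strand, exon 10 of 25, Clip1), chr4:123350892-123351010 (minus strand, exon 98 of 98, Macf1), chr8:41293505-41293624 (plus strand, exon 23 of 39, Pcm1) and chr12:110626930-110627049 (plus strand, exon 16 of 77, Dync1h1).
Tubb5: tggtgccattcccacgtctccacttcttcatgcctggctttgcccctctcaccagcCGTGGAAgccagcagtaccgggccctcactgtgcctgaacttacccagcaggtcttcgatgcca
Akap9: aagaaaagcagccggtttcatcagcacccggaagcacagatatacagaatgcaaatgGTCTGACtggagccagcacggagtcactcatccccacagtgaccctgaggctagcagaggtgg
Clip1: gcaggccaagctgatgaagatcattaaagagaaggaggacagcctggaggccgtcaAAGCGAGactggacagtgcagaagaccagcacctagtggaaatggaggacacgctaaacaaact
Macf1: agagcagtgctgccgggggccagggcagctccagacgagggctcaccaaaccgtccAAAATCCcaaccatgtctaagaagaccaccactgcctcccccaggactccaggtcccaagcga
Pcm1: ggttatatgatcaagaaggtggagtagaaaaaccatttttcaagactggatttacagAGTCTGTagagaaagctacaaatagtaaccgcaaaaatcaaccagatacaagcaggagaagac
Dync1h1: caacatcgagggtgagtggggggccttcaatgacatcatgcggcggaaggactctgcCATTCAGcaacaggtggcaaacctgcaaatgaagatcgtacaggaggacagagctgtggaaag

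The purine-rich hexamer GAAGAA, also with G as the last base of either or both of its triplets, was searched on the strand of the gene and found in 0 of these 6 sequences. In the 200 nt around each summit, only the Pcm1 site held it, with 3 matches. Except at Dync1h1, the printed summits came from libraries called at a fragment size of 200 nt. In coding exons such summits lay a median of -61 nt from the EB eCLIP-2 summit along the gene's strand. Neither the printed sequences nor the motif windows were moved by this difference, so the bound site may lie off their centre. Over all coding summits of the genes in eCLIP libraries, 33 of 62 such windows (53.2%) held a match, close to the 56.9% of the 2031 coding windows of all protein-coding genes. Over all classes the share was 37.6% of 109 windows, against 41.3% of 4783 windows of all protein-coding genes. The repeat GCAGCA was found in 15.6% of the windows, against 11.6% in all protein-coding genes. CTCCTCC was found in 8.26%, against 6.50%, and CTTCTTC in 2.75%, against 2.32%. Mean GC content was 50.7% in these windows and 51.8% in all protein-coding genes. None of these shares is read as particular to the cytoskeletal genes.

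In the embryo, 9 of the 50 genes (18%) had a peak in both eCLIP libraries and none in the input: Tuba1a, Tubb5, Vim, Sptbn1, Clasp1, Clip1, Pcm1, Cep350 and Akap9. Over all 21924 protein-coding genes, 1.6% met the same rule. In EBs, 10 genes (20%) had a peak in both eCLIP libraries and none in the input, namely Macf1, Dst, Map4, Clasp1, Cep350, Cenpf, Tpx2, Actn4, Enah and Diaph1, and 1.95% of all protein-coding genes met that rule. Only Clasp1 and Cep350 stood in both lists, and they were also the only genes of the 50 (4%) with a peak in all 4 eCLIP libraries and in neither input, against 0.556% of protein-coding genes. Without embryo eCLIP-2, 5 genes were called in the remaining 3 eCLIP libraries and neither input, without EB eCLIP-1 the EB rule called 17, and without either embryo eCLIP library 16 genes had a peak in the remaining one and none in the input. With a peak score of at least 100, 2 genes met the embryo rule and 3 the EB rule. No input peak of the 50 genes reached that score, so the filter also took away the exclusion by input. Without peaks over annotated small RNA genes, 7 genes met the embryo rule and 8 the EB rule, and Clasp1 and Cep350 left both lists. With the input of the other tissue, 7 genes met the embryo rule, without Tubb5 and Akap9, and 10 the EB rule, of which 8 were the same and Tubb5 and Akap9 took the place of Macf1 and Enah. The rule over all 4 eCLIP libraries excludes genes with a peak in either input, so this exchange cannot change it. At least 1 eCLIP library held a peak in 34 genes (68%, against 10.6% of protein-coding genes), and at least 1 input in 8 genes (16%, against 7.39%). The 50 genes are long. Their median span was 76.5 kb, against 17.4 kb for all protein-coding genes and 34.8 kb for the protein-coding genes with an eCLIP peak. They were also chosen with earlier results of these data known. Of 136 other cytoskeletal genes, 5.88% met the embryo rule, 5.88% the EB rule, and 33.8% had an eCLIP peak. The part of gene length, transcript abundance or the choice of genes in these shares was not tested.

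Peaks in the 50 genes made up 1.79% (95% exact binomial interval 1.18 to 2.62) and 1.99% (1.3 to 2.90) of all peaks in embryo eCLIP-1 and embryo eCLIP-2, 1.91% (1.23 to 2.83) and 1.69% (1.16 to 2.36) in EB eCLIP-1 and EB eCLIP-2, and 0.216% (0.0792 to 0.469) and 0.200% (0.0545 to 0.512) in the embryo and EB inputs. The share averaged 1.84% ± 0.131 over the eCLIP libraries (SD, n = 4) and 0.208% ± 0.0111 over the inputs (SD, n = 2). The denominators include peaks outside protein-coding genes, which were a larger part of the input peaks. Summits in protein-coding genes numbered 1183 and 963 in the embryo and EB inputs, against 2780 and 1999 peaks. In the eCLIP libraries, in the order above, they numbered 1179, 1026, 978 and 1604, against 1449, 1309, 1256 and 1955 peaks. The part of this in the difference was not tested. No eCLIP library overlapped an input. The intervals cover counting error only. Those of the 4 eCLIP libraries overlapped one another. Most peaks were small. The median peak held 4 or 5 tags in the eCLIP libraries, and 31 peaks held 3 tags, whereas 17 of the 109 eCLIP peaks held 10 tags or more. The MACS score, which grows as the p-value of the peak falls, reached 100 in 11 peaks, which lay in Tubb5, Cep350, Enah and Actn4.

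**Figure D1:**
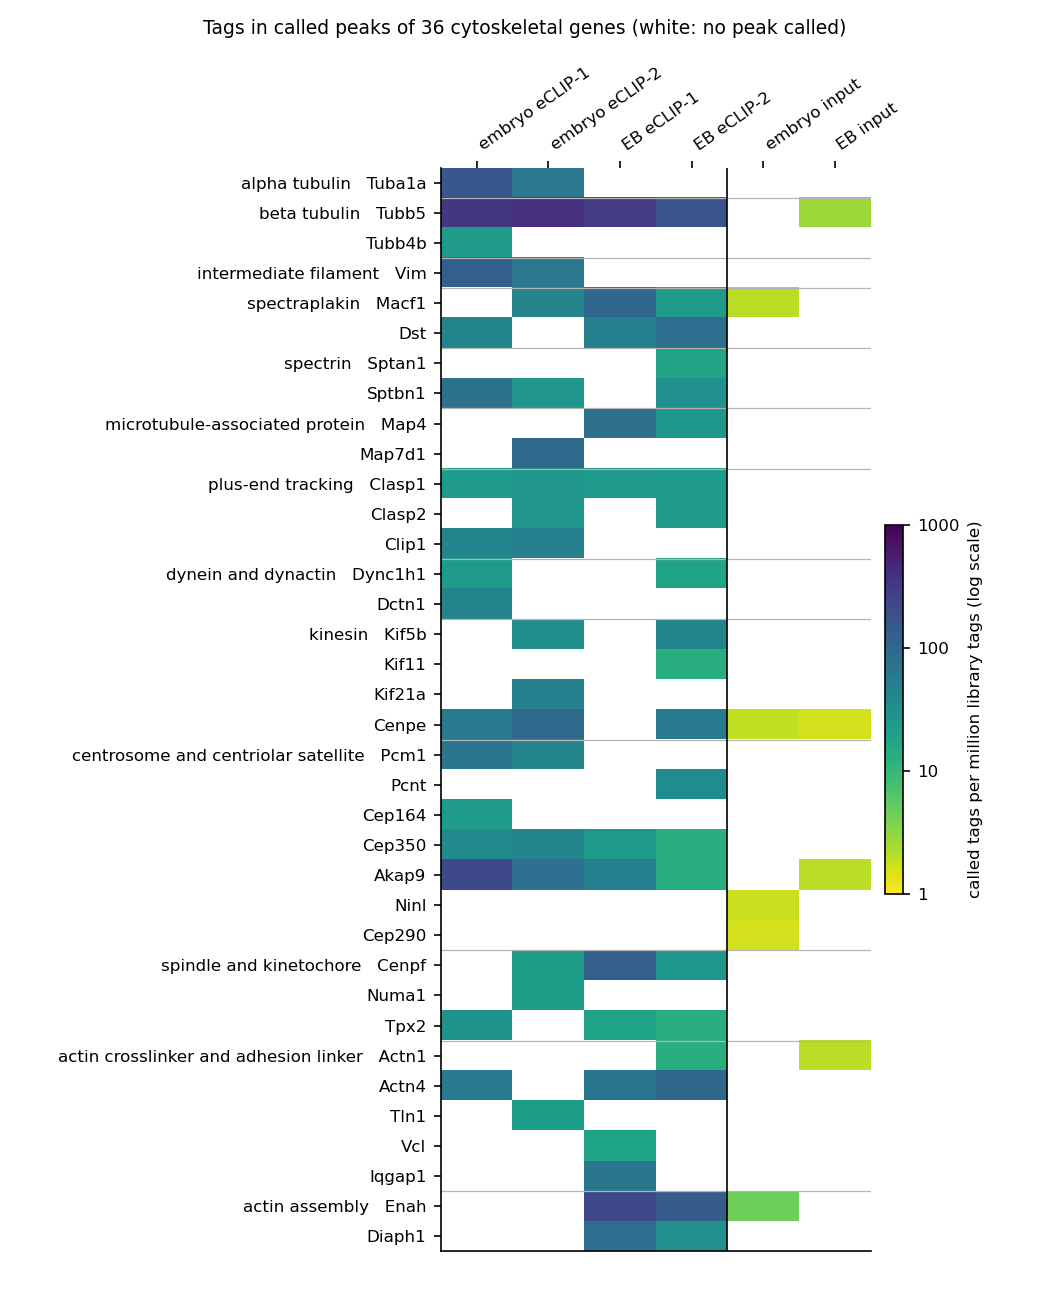
Tags in called peaks as CPM (colour, log scale) for the 36 genes with a peak, grouped by role from top to bottom, in the 4 eCLIP libraries and the 2 inputs; white means that no peak was called. Tubb5 is the darkest gene in embryo eCLIP-2, at 383.5 CPM, and its EB input cell stands at 2.78.

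Among the tubulins, the subunits of the microtubule itself, 3 of 7 genes held an eCLIP peak, and Tubb5 held the most tags. Tubb5, the beta tubulin of dividing cells, held 45 and 71 tags in embryo eCLIP-1 and embryo eCLIP-2, 49 and 38 tags in EB eCLIP-1 and EB eCLIP-2, and 0 and 19 in the embryo and EB inputs. These equalled 328.6 and 383.5 CPM in the embryo eCLIP libraries, 296 and 166.4 CPM in the EB eCLIP libraries and 2.78 CPM in the EB input. All 4 eCLIP libraries stood above both inputs, as any listed eCLIP peak does, and EB eCLIP-2 was the lowest of the 4. The means were 356 ± 38.8 in embryo eCLIP and 231 ± 91.6 in EB eCLIP (SD, n = 2 each). All of these tags fell in 1 region over exon 4, which holds most of the coding sequence (chr17:35833930-35836455). There the CPM exceeded that of the EB input by 118-fold (95% exact interval 67.7 to 214) in embryo eCLIP-1, 138-fold (82.1 to 242) in embryo eCLIP-2, 106-fold (61.5 to 191) in EB eCLIP-1 and 59.8-fold (33.6 to 110) in EB eCLIP-2. These ratios compare called peaks, whose borders differed between libraries. Ratios above 1 were fixed by the calling, since the smallest listed eCLIP peak lies above this input peak in CPM. Summit windows of 75 nt, the length of a tag, had no identical copy elsewhere in the genome, and the closest copies, in Tubb2a and Tubb2b, shared 70 of 75 bases.

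Of the other tubulins, Tuba1a, an alpha tubulin abundant in newborn neurons, held 21 and 12 tags in the embryo eCLIP libraries and none in the EB eCLIP libraries or the inputs. Its 5 peaks lay in exon 1, intron 1 and exon 4, and 4 of them also fell inside the readthrough gene Gm49450. Regions in the 5′ UTR of exon 1 (14 tags) and in intron 1 (13 tags) were shared by both embryo libraries. After the move of summits by 62 nt described below, the intron 1 summit of embryo eCLIP-2 fell in a coding exon. That of embryo eCLIP-1 stayed in the intron. The exon 4 summit of embryo eCLIP-1 had a copy with 74 of 75 identical bases in the processed pseudogene Gm7172. Tubb4b held a single peak of 3 tags in embryo eCLIP-1, and its summit window had 3 identical placements, at the gene itself and at 2 processed pseudogenes. No peak was listed for Tuba1b, Tuba1c, Tubb2a or Tubb2b in any library, and the part of reads that match more than 1 of these near-identical genes was not tested. Vim, the intermediate filament of mesenchymal and neural progenitor cells, held 17 and 12 tags in the embryo eCLIP libraries and no peak in the other 4 libraries. In both embryo libraries 12 of these tags lay in a shared region of coding exon 1.

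The spectraplakins, giant proteins that crosslink actin and microtubules, held 15 eCLIP peaks. Macf1 held 0 and 8 tags in the embryo eCLIP libraries, 17 and 5 in the EB eCLIP libraries, 13 in the input of embryos and 0 in that of EBs. Embryo eCLIP-2 stood at 43.2 CPM, EB eCLIP-1 at 102.7 and EB eCLIP-2 at 21.9, against 2.07 in the embryo input. Its 7 eCLIP peaks were spread over 6 regions, and only exon 98, the last exon of the gene, was shared, by the 2 EB libraries. The input peak lay elsewhere, in intron 1, and its 75-nt window had 13 identical placements in the genome. Dst, which encodes dystonin, held 6 and 0 tags in the embryo eCLIP libraries, 8 and 19 in the EB eCLIP libraries and 0 in both inputs, and none of its 8 peaks overlapped another library's. Sptbn1, the non-erythroid beta spectrin of the membrane skeleton, held 10 and 5 tags in the embryo eCLIP libraries, 0 and 7 in the EB eCLIP libraries and 0 in both inputs, likewise in 5 separate places. Its partner Sptan1 held 4 tags in EB eCLIP-2 only. Macf1, Dst and Sptbn1 thus held peaks in 3 eCLIP libraries each, and of these only Macf1 held peaks of separate libraries at a shared position. The difference between the mean of the eCLIP libraries and that of the inputs was 20.7 CPM for Macf1 without EB eCLIP-1, against 40.9 with all libraries, and 19.2 for Sptbn1 without embryo eCLIP-1, against 32.7.

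**Figure D2:**
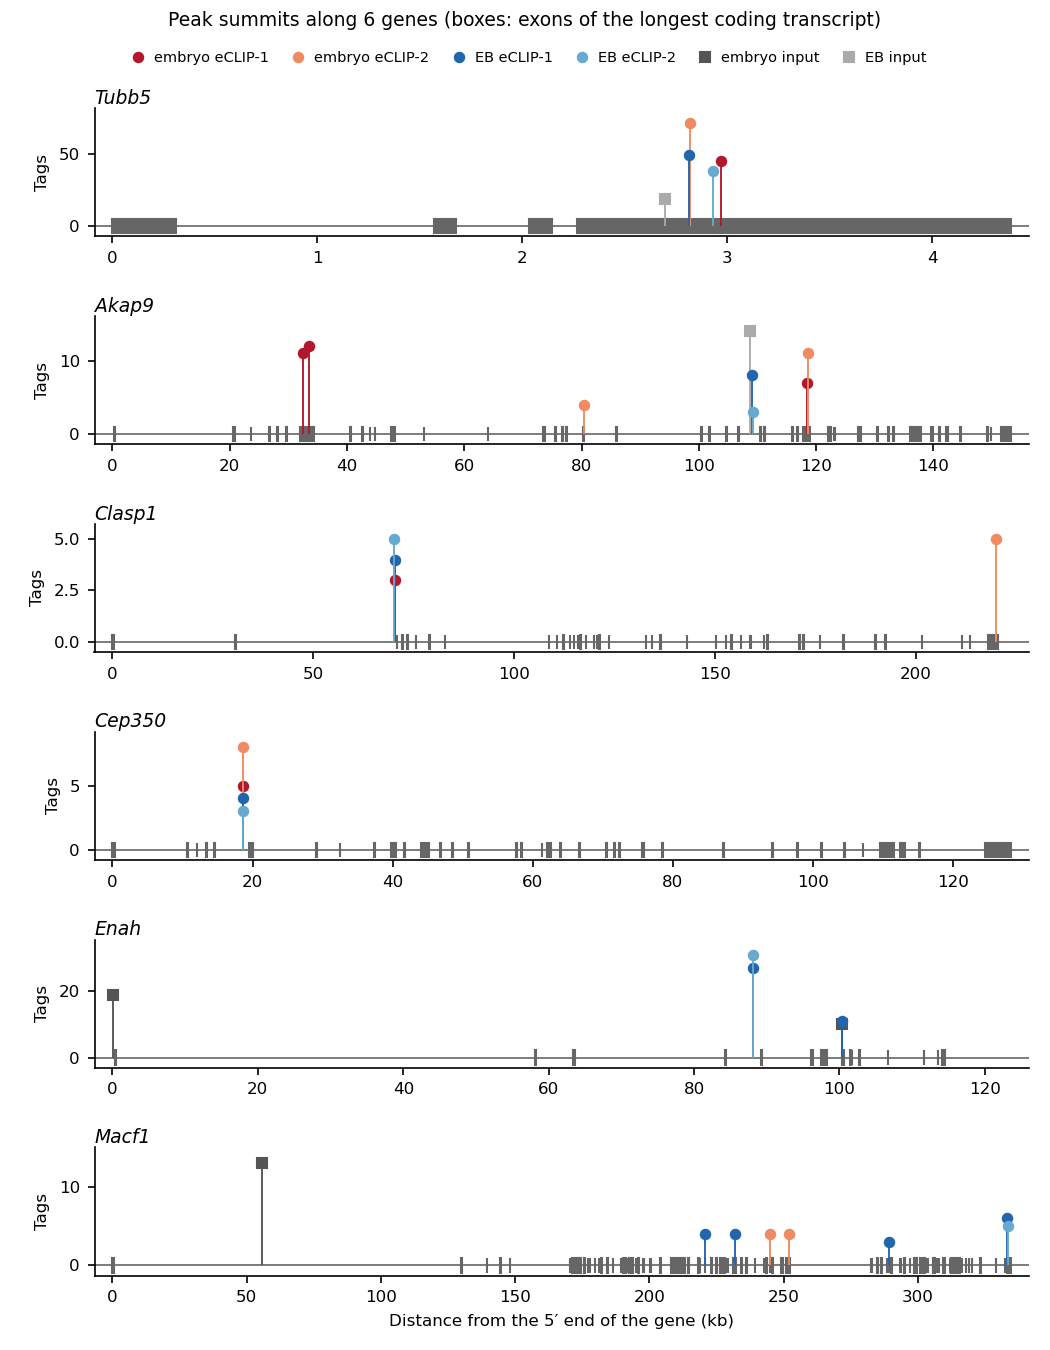
Tags (y axis, linear) at each peak summit along Tubb5, Akap9, Clasp1, Cep350, Enah and Macf1, by distance in kb from the 5′ end of the gene; circles are eCLIP libraries, squares are inputs, and boxes are exons of the longest coding transcript. Summits of all 4 eCLIP libraries cluster in exon 4 of Tubb5 and at 1 intronic position of Cep350, while those of Macf1 are scattered.

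Among microtubule-associated proteins, Map4, which stabilizes interphase microtubules, held 13 and 6 tags in EB eCLIP-1 and EB eCLIP-2 and no peak in the embryo libraries or the inputs, with its 5 peaks at 5 positions. Map7d1 held 3 peaks, all in embryo eCLIP-2, and no Ckap5 peak was listed. All 3 plus-end tracking genes held an eCLIP peak. Clip1, which encodes the plus-end protein CLIP-170, held 6 and 9 tags in the embryo eCLIP libraries only, and 11 of these lay in the printed exon 10 region shared by both. Clasp2, which stabilizes microtubule ends, held 5 tags in embryo eCLIP-2 and 5 in EB eCLIP-2, in 1 region in intron 1 of its shorter transcripts.

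Clasp1, the paralogue of Clasp2, held 3 and 5 tags in embryo eCLIP-1 and embryo eCLIP-2, 4 and 5 tags in EB eCLIP-1 and EB eCLIP-2 and 0 in both inputs, or 21.9, 27.0, 24.2 and 21.9 CPM in the eCLIP libraries. Cep350, a centrosomal protein that anchors microtubules, held 5 and 8 tags in the embryo eCLIP libraries, 4 and 3 in the EB eCLIP libraries and 0 in both inputs, or 36.5, 43.2, 24.2 and 13.1 CPM. The levels were low. With a peak in all 4 eCLIP libraries and none in the inputs, the order of eCLIP above input restates the calls. The position of these peaks set them apart from the coding sites. All 4 Cep350 peaks lay in intron 5 (chr1:155954453-155954662), where the annotation places Gm23744, an snRNA gene of 149 nt on the opposite strand. The EB eCLIP-2 summit lay inside Gm23744 and those of the other eCLIP libraries just before its start. For Clasp1, the peaks of embryo eCLIP-1, EB eCLIP-1 and EB eCLIP-2 lay in intron 2 (chr1:118459123-118459419), at Gm22710, an snRNA gene of 125 nt that is likewise on the opposite strand, and both EB summits also lay in the antisense transcript 2900060B14Rik. The Clasp1 peak of embryo eCLIP-2 lay elsewhere, in the 3′ UTR of exon 42. When the 7 peaks over small RNA genes were left out, no gene of the 50 had a peak in all 4 eCLIP libraries and in neither input.

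To show which RNA lies under these intronic peaks, the peak of EB eCLIP-2 is printed below for both, on the strand of the snRNA gene (chr1:155954584-155954662, plus strand, 79 nt, and chr1:118459125-118459260, minus strand, 136 nt). Capitals mark the bases within the snRNA gene. These sequences and the Enah sequence further on were chosen after their values were seen.
Cep350 intron (Gm23744): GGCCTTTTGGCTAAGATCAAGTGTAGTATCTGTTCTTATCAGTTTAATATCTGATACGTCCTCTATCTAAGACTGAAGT
Clasp1 intron (Gm22710): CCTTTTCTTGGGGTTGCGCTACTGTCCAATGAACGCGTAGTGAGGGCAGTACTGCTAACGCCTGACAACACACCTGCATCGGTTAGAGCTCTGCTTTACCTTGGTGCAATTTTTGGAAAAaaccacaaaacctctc

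The Cep350 summit window of EB eCLIP-2 matched 18 other annotated snRNA genes with at least 60 of 75 identical bases, the best with 69, and the U2 snRNA gene Rnu2-10 with 66. Its windows in the other 3 libraries, and all the Clasp1 windows, had no second match at that level. The peak lists give no strand, but the fragment size used by the caller was 76 nt in EB eCLIP-2 and 200 nt in the other 5 libraries, which moves reads of a plus-strand and a minus-strand RNA in opposite directions. In coding exons of protein-coding genes, summits of the other eCLIP libraries lay a median of -61 nt (quartiles -88.5 and -38) from the EB eCLIP-2 summit along the gene's strand, below 0 in 92 of 103 pairs (89.3%). In snRNA genes the median was -64 nt, below 0 in all 101 pairs. Along the strand of Cep350 the offsets were 66, 65 and 65 nt, and along that of Clasp1 78 and 61 nt, all above 0. Along the strands of Gm23744 and Gm22710 they were -66, -65, -65, -78 and -61 nt, and these pairs are themselves among the 101. In other regions the offset was -73 nt in the Akap9 intron, -55 nt in Clasp2, -56 nt in Macf1, -36 nt in Diaph1, -285 nt in the wide Actn4 peak, -15 nt in Dync1h1 and 0 nt in Enah. The wide peaks of Tubb5 ranged from -119 to 37 nt.

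**Figure D3:**
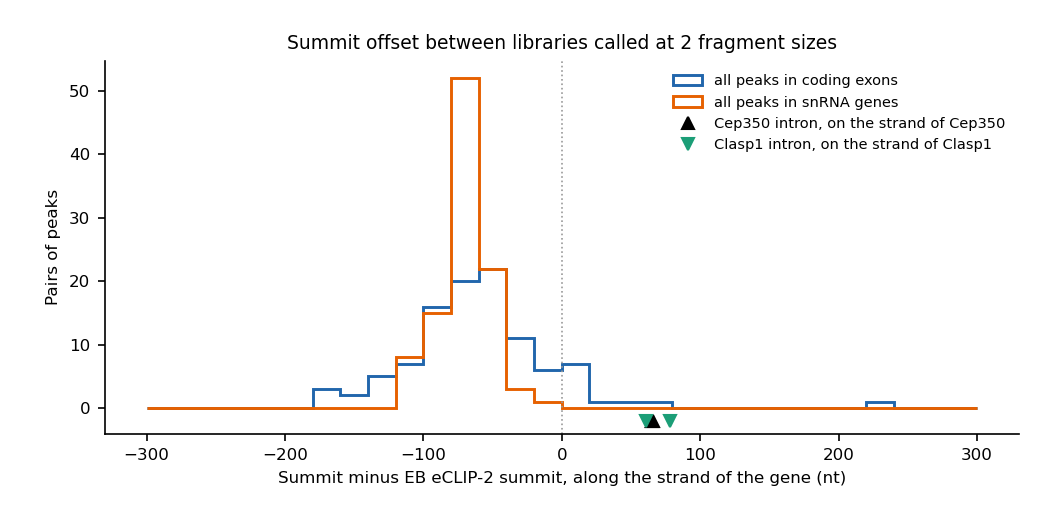
Distance in nt from the EB eCLIP-2 summit to the summit of another eCLIP library, along the strand of the gene (x axis), for overlapping peaks in coding exons (103 pairs) and in snRNA genes (101 pairs), as numbers of pairs (y axis); triangles give the Cep350 and Clasp1 introns. The triangles lie above 0, on the other side from most pairs.

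Among the motors, Dync1h1, the heavy chain of cytoplasmic dynein, held 3 tags in embryo eCLIP-1 and 4 in EB eCLIP-2, both at the printed exon 16 site. Dctn1, the large dynactin subunit, held 6 tags in embryo eCLIP-1. Cenpe, the kinesin that carries chromosomes to the spindle equator, held 8 and 17 tags in the embryo eCLIP libraries, 0 and 13 in the EB eCLIP libraries, 12 in the input of embryos and 11 in that of EBs. These equalled 58.4 and 91.8 CPM in embryo eCLIP, 56.9 in EB eCLIP-2, and 1.91 and 1.6 in the inputs. All of its 6 eCLIP summits lay in coding exons, at 6 positions, whereas both input summits lay in intron 34. Kif5b, a conventional kinesin for organelle transport, held 6 tags in embryo eCLIP-2 and 10 in EB eCLIP-2, all inside the antisense gene Gm17036. Kif21a and Kif11 held 9 and 3 tags in 1 library each, and no Kif1b peak was listed.

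Centrosomal genes held 18 eCLIP peaks in 5 of 10 genes. Akap9, the giant scaffold AKAP450 of the centrosome and Golgi, held 30 and 15 tags in the embryo eCLIP libraries, 8 and 3 in the EB eCLIP libraries, and 0 and 14 in the embryo and EB inputs. These equalled 219.1 and 81.0 CPM in embryo eCLIP, 48.3 and 13.1 in EB eCLIP, and 2.05 in the EB input. Both embryo eCLIP libraries were above both EB eCLIP libraries, which in turn were above the inputs, as any listed eCLIP peak is. The called peaks of the tissues also lay at different positions. All 5 embryo peaks lay in coding exons 7, 20 and 30, and exon 30 was shared by both embryo libraries with 7 and 11 tags. The EB peaks both lay in intron 25, where the EB input also had a peak, and exceeded it there by 23.6-fold (8.56 to 60.2) in EB eCLIP-1 and 6.4-fold (1.18 to 22.9) in EB eCLIP-2. Any listed eCLIP peak lies above this input peak in CPM, so ratios above 1 were fixed by the calling. The 75-nt summit window of EB eCLIP-1 was 85.3% repeat-masked. It had 2 placements at 72 of 75 identical bases, against 1 for EB eCLIP-2, whose 3 tags are the smallest count listed in that library. Whether the repeat had a part in these peaks was not tested. The mean difference between eCLIP libraries and inputs over the whole gene was 89.4 CPM, and 46.5 CPM without embryo eCLIP-1.

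Pcm1, the scaffold of centriolar satellites, held 9 and 8 tags in the embryo eCLIP libraries and no peak elsewhere, and all of its 4 summits lay in coding exons. Its printed exon 23 site held 4 tags in each embryo library. Pcnt, the pericentriolar scaffold pericentrin, held 8 tags in EB eCLIP-2, and Cep164, a protein of the distal appendages needed for cilia, held 3 tags in embryo eCLIP-1. Ninl and Cep290 had a peak in the embryo input only, of 11 and 10 tags, both in introns. No peak was listed for Cep57, Cep170 or Nin.

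Among spindle and kinetochore genes, Cenpf, a kinetochore and nuclear matrix protein, held 0 and 4 tags in the embryo eCLIP libraries, 21 and 6 in the EB eCLIP libraries and 0 in both inputs. Of the tags in EB eCLIP-1, 17 lay in 1 peak in coding exon 12, and the mean difference from the inputs was 16 CPM without this library, against 43.7 with it. Tpx2, which nucleates spindle microtubules, held 4 and 0 tags in the embryo eCLIP libraries, 3 and 3 in the EB eCLIP libraries and 0 in both inputs, at 3 positions. Numa1 held 4 tags in embryo eCLIP-2, and no Aspm peak was listed. Of the actin linkers, Actn4 and Diaph1 each had a shared region in a 3′ UTR. Actn4, an alpha actinin that bundles actin, held 8 and 0 tags in the embryo eCLIP libraries, 11 and 22 in the EB eCLIP libraries and 0 in both inputs, or 58.4 CPM in embryo eCLIP-1 and 66.4 and 96.3 in EB eCLIP. Both EB libraries shared a region of 25 tags in its last exon, the 3′ UTR of exon 22. Diaph1, a formin that elongates actin and stabilizes microtubules, held 14 and 7 tags in the EB eCLIP libraries only, and 18 of them lay in a shared region in its last exon, exon 28. Actn1 held 3 tags in EB eCLIP-2, against 14 tags in the EB input at another position, in the 5′ UTR. Tln1, Vcl and Iqgap1, which link adhesion sites or signalling to actin, held peaks of 3 to 5 tags in 1 library each, and the Vcl summit also lay in Ap3m1. No eCLIP or input peak was listed for Ezr, Msn, Diaph3 or Cttn.

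Enah, which promotes actin filament elongation at the leading edge, had the highest EB values after Tubb5. It held 0 and 0 tags in the embryo eCLIP libraries, 38 and 31 in the EB eCLIP libraries, and 29 and 0 in the embryo and EB inputs, or 229.5 and 135.7 CPM in EB eCLIP and 4.61 in the embryo input. An intron 4 region (chr1:181931644-181932291) held 27 and 31 of these tags, with both summits at the same base. The region is a tandem repeat on the strand of Enah, in which GCAGCA occurs 11 times in 648 nt and the unit GCAGCATGTTGTA 6 times, 52 to 113 nt apart. The middle 240 nt (chr1:181931810-181932049, minus strand) are printed because this was the peak with the most tags outside Tubb5, with GCAGCA in capitals.
Enah intron: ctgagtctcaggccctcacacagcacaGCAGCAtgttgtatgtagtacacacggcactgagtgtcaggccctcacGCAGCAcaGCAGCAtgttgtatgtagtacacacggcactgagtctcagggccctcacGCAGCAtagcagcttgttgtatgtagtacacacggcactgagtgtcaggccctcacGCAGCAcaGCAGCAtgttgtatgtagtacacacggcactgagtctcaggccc

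The remaining 11 tags of EB eCLIP-1 lay in coding exon 8, where the embryo input had a peak of 10 tags, and exceeded it by 41.8-fold (16.1 to 110) in CPM. The 75-nt summit window of the intronic peak had 2 placements at 72 of 75 identical bases in both EB libraries. Whether the repeat had a part in the calling of the intronic peak was not tested.

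The exact permutation test of 4 eCLIP libraries against 2 inputs, two-sided over 15 arrangements, could not give a p below 0.133, so no gene could pass 0.05. The 11 genes tested were those with peaks in at least 3 eCLIP libraries. Since the lowest eCLIP value of a listed gene among them was 13.1 CPM and the highest input value 2.78 CPM, p restates in how many eCLIP libraries a peak was listed, and the differences are given as a description. The p was 0.133 for Tubb5 (292 CPM more in eCLIP libraries), Akap9 (89.4 more), Cep350 (29.3 more) and Clasp1 (23.7 more), which had peaks in all 4 eCLIP libraries. For the other 7 genes, with peaks in 3, p was 0.4, with differences of 15.1 for Tpx2 to 55.3 for Actn4. Embryo and EB were compared as values only, since an exact permutation test of 2 libraries against 2 cannot go below that threshold. The study's methods describe the libraries of a tissue as independent replicates.

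Merging overlapping eCLIP peaks gave 88 regions in the 50 genes. Of these, 16 (18.2%) were held by at least 2 eCLIP libraries, against 1143 of 3856 regions (29.6%) over all eCLIP peaks, and 2 of the 16 (12.5%) also held an input peak, against 26.9% overall. Without embryo eCLIP-1, embryo eCLIP-2 or EB eCLIP-2 in turn, 9 regions were shared. Of the 16 shared regions, 6 were shared by both embryo libraries and no EB library (Vim, Akap9 exon 30, both Tuba1a regions, Clip1 and Pcm1), 5 by both EB libraries and no embryo library (Enah, Actn4, Diaph1, Macf1 and Akap9 intron 25), and 5 by libraries of both tissues (Tubb5, Cep350, Clasp1, Clasp2 and Dync1h1). Shared regions of both tissues thus made up 31.3% here, against 66.4% of the 1143 shared regions overall. The 1143 regions include those outside protein-coding genes, such as snRNA genes, and here the Cep350 and Clasp1 regions lie over snRNA genes. The part of this in the difference was not tested. Peak lists give no transcript level, so stronger binding, more RNA per cell and more cells of a type cannot be told apart.

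**Figure D4:**
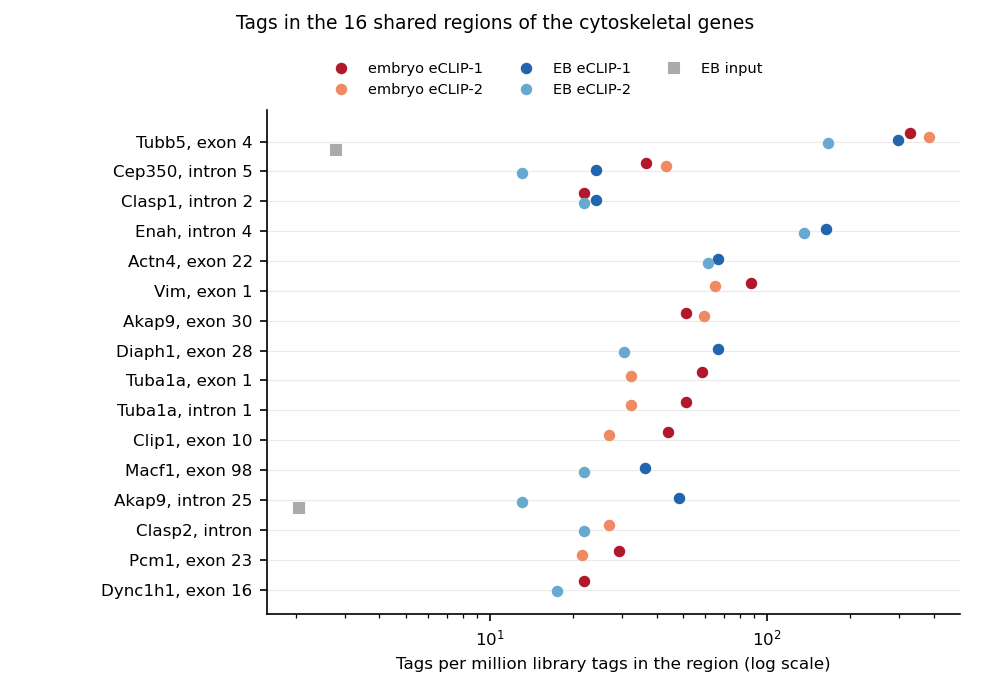
CPM (x axis, log scale) in the 16 regions of the cytoskeletal genes that at least 2 eCLIP libraries held; circles are eCLIP libraries, squares the EB input, and a library without a called peak is not drawn. Tubb5 stands highest, and only Tubb5 and the Akap9 intron carry an input peak.

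By position in the transcript, 62 of the 109 eCLIP summits (56.9%, exact interval 47.0 to 66.3) lay in coding exons, 29 (26.6%, 18.6 to 35.9) in introns, 12 (11%) in 3′ UTRs and 6 (5.50%) in 5′ UTRs. Of the intronic summits, 7 belonged to the Cep350 and Clasp1 peaks over snRNA genes. Others, in Cenpf, Clip1, Dst, Iqgap1, Macf1, Map7d1, Tuba1a and Vim, fell in coding exons after the move by 62 nt described below. Coding summits in Actn4, Cenpe and Dctn1 fell in introns with the same move. Of the 10 input summits, 2 (20%) lay in coding exons and 6 (60%) in introns. The coding share was 65.4% and 53.8% in embryo eCLIP-1 and embryo eCLIP-2, 50% and 57.6% in EB eCLIP-1 and EB eCLIP-2, and 16.7% and 25% in the embryo and EB inputs, which held only 6 and 4 summits. It averaged 56.7% ± 6.56 in the eCLIP libraries (SD, n = 4) and 20.8% ± 5.89 in the inputs (SD, n = 2). The same shares over all protein-coding genes were 42.2% ± 4.01 and 6.79% ± 2.43. All 4 eCLIP libraries were above both inputs. Summits in mostly repeat-masked windows made up 6.42% of the 109 eCLIP summits and 3 of the 10 input summits, and 104 of 109 eCLIP windows had a single placement at 72 of 75 identical bases.

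**Figure D5:**
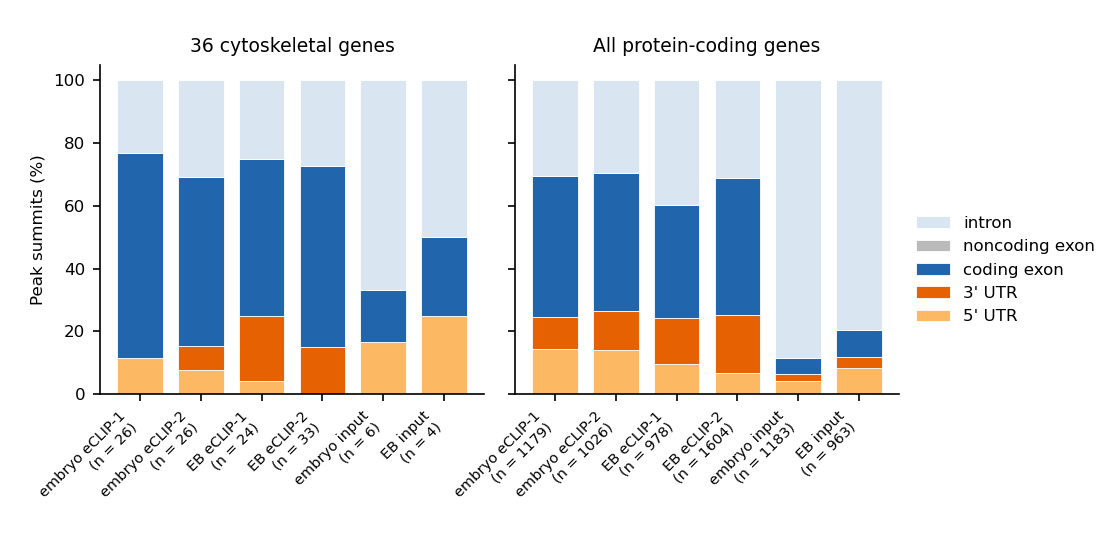
Share of peak summits (y axis, %) by position in the gene, for the 36 cytoskeletal genes with a peak (left) and all protein-coding genes (right), in each library, with the number of summits under each bar. Coding exons make up 50% to 65.4% of summits in the eCLIP libraries of the cytoskeletal genes, against 16.7% and 25% in their inputs.

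Within exons, 16 of 109 eCLIP summits (14.7%, 8.63 to 22.7) lay in splice site windows, of which 6 were in the last 50 nt before a 5′ splice site and 10 in the first 25 nt after a 3′ splice site of any annotated transcript. By library these were 4 and 5 summits in embryo eCLIP-1 and embryo eCLIP-2 and 1 and 6 in EB eCLIP-1 and EB eCLIP-2 (15.4%, 19.2%, 4.17% and 18.2%). In the inputs, 1 of 6 summits lay there in embryos and 0 of 4 in EBs, where the exact interval reaches up to 60.2%. Over all protein-coding genes with more than 1 exon, 584 of 4648 eCLIP summits (12.6%) and 42 of 2132 input summits (1.97%) lay in such windows. The 16 summits lay in Dst, Cenpe, Pcm1, Actn4, Dctn1, Sptan1, Sptbn1, Kif11, Kif21a, Kif5b, Map7d1 and Enah, and that of Enah only through a transcript other than the longest coding one. When summits of the libraries called at the larger fragment size were moved by 62 nt toward the 3′ end, the difference in shift, 19 summits (17.4%) fell in the windows, 13 before a 5′ splice site and 6 after a 3′ splice site. The side of the exon with more summits thus turned over with this setting.

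Of 136 other cytoskeletal genes in the annotation, 8 (5.88%) met the embryo rule, 8 (5.88%) the EB rule and 1 (0.735%) was called in all 4 eCLIP libraries and neither input. This gene was Rdx, radixin, an ERM protein that links membrane to actin and a relative of the uncalled Ezr and Msn. Rdx held 11 and 20 tags in the embryo eCLIP libraries, 6 and 4 in the EB eCLIP libraries and 0 in both inputs, or 80.3, 108, 36.2 and 17.5 CPM, with both embryo libraries above both EB libraries. At least 1 eCLIP library held a peak in 46 of the 136 genes (33.8%) and at least 1 input in 15 (11%).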

How the data were processed

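eCLIP of STRAP was deposited as 1 peak list per library, 6 in all, for mouse embryos and EBs. The authors demultiplexed reads with bcl2fastq 2.18.0.12, trimmed adapters with cutadapt, removed reads from repeats, aligned with STAR 2.5.2b to GRCm38 and called peaks with MACS 1.4.2. Per the file headers, no control was used, the p cutoff was 1e-05, and the tag size was 75 nt. The deposited values are tag counts per peak after duplicate removal, fold over the local background (a ratio) and a score, which the headers define from the log10 of the p-value. The study describes a filter against input, and the lists used here were called without an input. Counts of 3 to 5 tags give wide intervals.

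Peaks were assigned by summit to Gencode M21 genes, and tags divided by the library's tags. The exact permutation test (SciPy 1.17.1, pandas 2.3.3, Python 3.11.15) and Clopper-Pearson 95% intervals were used, as no test across genes fits lists without zeros. Assignment and classes were tested on simulated data. Values per library are given for genes with peaks in at least 3 of 4 eCLIP libraries, and sequences for coding sites with most libraries and tags, none from chromosome 18. The sequence of 1 such site is not reported here. The genes and lists were chosen with earlier results of these data known. Alternatives changed the score, fold, assignment, shift, gene set and libraries. Leaving out peaks over small RNA genes and exchanging the inputs were chosen after seeing the data.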

Additional observations from a re-analysis of the deposited data

Results flagged for a closer look

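Enah stood apart because the eCLIP libraries of the tissues lay on opposite sides of their own inputs. The tags in called peaks per 1000000 library tags, minus those of the same tissue's input, were -4.61 for both embryo libraries, and for EBs they were 229.5 with the library EB eCLIP-1 and 135.7 with EB eCLIP-2. The embryo values are those of the embryo input alone, since neither embryo eCLIP library had a called Enah peak, and the smallest listed peak there would have equalled 21.9 or 21.6 on this scale. The Hba-x and Sox11 peaks did not follow the labels of the inputs. Set against the input of the other tissue, the values were 0 for both embryo libraries and 224.9 and 131.1 for EB eCLIP-1 and EB eCLIP-2. The difference between the tissues was not tested.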

How the results depend on the processing

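All 119 peaks exceeded 5-fold, so the fold filter changed nothing. With a score of at least 100, 2 genes met the embryo rule, 3 the EB rule (Tubb5, Cep350 and Enah), 3 regions were shared, the genes called in all 4 eCLIP libraries were Tubb5 and Cep350, the coding share was 39.6%, the share of all peaks 0.648% and the splice window share 0%. Without the tubulins the share of all peaks was 1.67%. Without peaks over small RNA genes, an alternative chosen after seeing the data, 0 genes were called in all 4 eCLIP libraries and neither input. The same alternative left 7 genes for the embryo rule and 8 for the EB rule. Leaving out 1 eCLIP library in turn gave 16 genes for the embryo rule (without either library), 12 to 17 for the EB rule (17 without EB eCLIP-1), 2 to 5 in all remaining eCLIP libraries (5 without embryo eCLIP-2), 9 to 11 shared regions (9 without embryo eCLIP-1, embryo eCLIP-2 or EB eCLIP-2), coding shares of 53.8% to 58.9%, shares of all peaks of 1.80% to 1.90%, and splice window shares of 12.6% to 17.6%. With the input of the other tissue, also chosen after seeing the data, 7 genes met the embryo rule and 10 the EB rule. The coding share was 60.6% after the shift of summits by 62 nt and 60.7% without peaks over small RNA genes. The cause was not tested. Peaks of 3 tags limit what any single library can show. No paired analysis was possible because the only test set eCLIP libraries against inputs, and the labels give the inputs no replicate number that pairs them with an eCLIP library.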
